A study of Danio rerio with 8 samples.

Results

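A set of 5 keratin genes was followed in zebrafish ovary after dietary exposure to dioxin: the type II keratins krt4 and krt8 and the type I keratins krt94, krt18a.1 and krt18b. They were taken as every probe set annotated with 1 of these 5 symbols, which gave 1 probe set per gene, 5 of the 15502 probe sets kept and 5 of the 8793 genes named on the array. The genes were chosen by their differences from control and slopes with dose on these same arrays, which were low in exposed ovary, so their differences, and the counts of them that pass a threshold, are descriptions and no independent test. The series held whole ovaries of adult AB strain females, 6 to 8 months old, fed for 15 days on trout chow that carried tritium-labelled TCDD, the most toxic of the chlorinated dioxins, at 10, 40 or 100 ppb, or acetone-treated chow with no TCDD (0 ppb, the control). TCDD is a persistent ligand of the aryl hydrocarbon receptor. Equal amounts of RNA from 5 ovaries were pooled at each dose, and each pool was measured on 2 Affymetrix arrays. There were therefore 4 pools and 8 arrays. By the labels the 2 arrays of a pool are technical replicates, so their spread does not measure the differences between fish.

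Keratins are the intermediate filament proteins of epithelia. A keratin filament is built from pairs of 1 type I and 1 type II chain, so an epithelial cell needs both types. In mammals the simple, single-layered epithelia, among them the ovarian surface epithelium and liver cells, use mainly keratin 8 with keratin 18. In zebrafish, krt4 is best known from the outer skin layer of the embryo, while krt8 and the krt18 genes are the counterparts of the mammalian simple-epithelium pair. krt94 is a type I keratin of a fish gene cluster, and no function is given for it here. A whole ovary holds oocytes, follicle cells, stroma, vessels, blood and a thin surface epithelium.

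The arrays differed in brightness before scaling, with median intensities from 28.1 to 62.25. Values below are log2(intensity + 16) after quantile normalisation, which gives every array the same distribution of values. Levels of different probe sets are not comparable on this scale, but differences of 1 probe set between arrays are. The 2 arrays of a pool correlated at 0.981 to 0.992 over the probe sets, and 190 of the 9301 probe sets tested differed at least 2-fold between the arrays of the 10 ppb pool, against 9 to 20 in the other pools. Exposure showed in cyp1a, the aryl hydrocarbon receptor's best-known target, whose pool mean was 5.45 in the control and 7.93, 8.58 and 9.48 at 10, 40 and 100 ppb. It was the 1 of 3 tested receptor targets called at each dose. The 2 arrays of the 10 ppb pool read 8.60 and 7.27 for cyp1a. The higher was the array with the higher sum of liver markers, 18504 against 5049. The part of liver RNA in the cyp1a value at 10 ppb was not tested.

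The 2 type II keratins had their highest values in the control pool, or in the control and 10 ppb pools together, and their lowest at 100 ppb. For krt4 the 2 control arrays read 7.78 and 8.14, the 10 ppb arrays 7.65 and 7.17, the 40 ppb arrays 6.41 and 6.50, and the 100 ppb arrays 5.94 and 5.91. No 2 pools overlapped for krt4. Its difference from control was -0.55 at 10 ppb, -1.51 at 40 ppb and -2.04 at 100 ppb (SE 0.18 each, 2 arrays a pool), the last a 4.11-fold lower value. In the units deposited, krt4 read 321.5 and 188.7 on the control arrays and 58.3 and 32.6 on the 100 ppb arrays.

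For krt8, the type II chain of simple epithelia, the control arrays read 10.04 and 10.42, the 10 ppb arrays 10.15 and 9.79, the 40 ppb arrays 9.15 and 9.09, and the 100 ppb arrays 8.65 and 8.68. The control and 10 ppb arrays overlapped, and the 40 and 100 ppb arrays lay below both, in that order. The differences from control were -0.26, -1.11 and -1.57 (SE 0.15), the last 2.97-fold lower. The deposited intensities of krt8 were 1517.2 and 927.7 in the control and 514.5 and 298.8 at 100 ppb.

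The 3 type I keratins ran the same way from control to 100 ppb but differed from each other at 10 ppb. krt94 read 8.28 and 8.52 in the control, 7.83 and 7.85 with 10 ppb, 7.04 and 7.09 with 40 ppb and 6.30 and 6.56 with 100 ppb. All 4 pools of krt94 stood apart in the order of dose. Its differences from control were -0.56, -1.34 and -1.97 (SE 0.14), the last 3.91-fold lower. krt18a.1, a type I partner of krt8, read 9.37 and 9.40 in the control, 9.33 and 9.03 with 10 ppb, 8.38 and 8.42 with 40 ppb and 8.06 and 7.70 with 100 ppb. Its control and 10 ppb arrays did not overlap but were only 0.03 apart at their nearest, with a difference in means of -0.20, and the differences at 40 and 100 ppb were -0.99 and -1.50 (SE 0.15), the last 2.83-fold lower.

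The second krt18 gene, krt18b, had another profile. It read 7.46 on both control arrays, 6.18 and 6.49 with 10 ppb, 6.34 and 6.15 with 40 ppb and 5.38 and 5.22 with 100 ppb. The 10 and 40 ppb arrays overlapped, both lay below the control, and the 100 ppb arrays lay below all others. The differences from control were -1.13 at 10 ppb, -1.21 at 40 ppb and -2.16 at 100 ppb (SE 0.16), the last 4.47-fold lower. The deposited intensities of krt18b were 253.8 and 113.6 in the control and 33.4 and 16.2 at 100 ppb. All 5 keratins read above the array's negative tag controls on all 8 arrays. In pooled whole ovary, fewer cells of a type and less RNA per cell cannot be told apart.

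**Figure D1:**
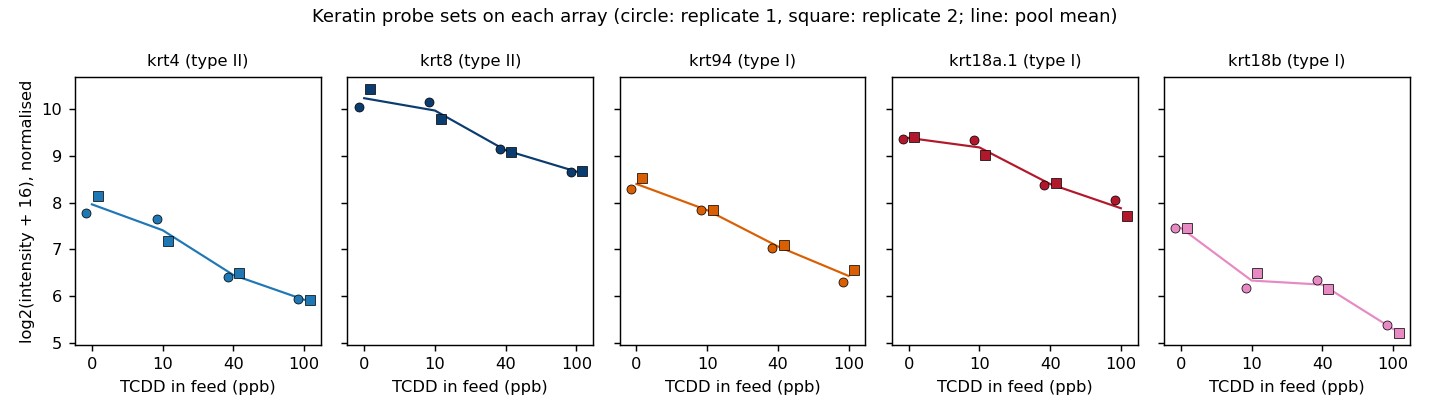
Level of each of the 5 keratins on every array (points, log2(intensity + 16), quantile normalised) at 0, 10, 40 and 100 ppb TCDD, with lines through the pool means. The dose axis is evenly spaced by rank, not to scale. The 100 ppb arrays are the lowest for every gene, and krt18b alone has its first large step at 10 ppb.

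A probe set was called when its adjusted p was under 0.05 (limma over all 9301 probe sets tested, Benjamini-Hochberg) and its log2 difference was at least 1 in size. At 10 ppb, 1 of the 5 keratins, krt18b, was called lower, where 0.462% of all probe sets tested were called lower. At 40 ppb 4 of the 5 were called lower, with 0.301% of all probe sets, and at 100 ppb all 5 were, with 0.946%. None was called higher, with 0.645%, 0.043% and 0.301% of all probe sets. Both exposed arrays lay below both control arrays for 4 of the 5 at 10 ppb (22.5% of all probe sets), for all 5 at 40 ppb (23.3%) and for all 5 at 100 ppb (28.9%). Since the genes were chosen for these contrasts, the counts only describe the choice. At 40 ppb krt8, at -1.11, was the keratin just inside the minimum difference and krt18a.1, at -0.99, the keratin just outside. The median difference of the 5 was -0.55, -1.21 and -1.97 at the 3 doses, and that of all probe sets tested was -0.02, 0.01 and 0.00. Ranked from the lowest difference at 100 ppb, krt18b was 10th, krt4 14th, krt94 16th, krt8 29th and krt18a.1 34th of 9301. On the deposited scaling, where array brightness adds to the spread, the calls among the 5 were 0, 0 and 1 at 10, 40 and 100 ppb. On that scaling the median of all probe sets tested was itself -0.34 at 10 ppb and 0.14 at 40 ppb. The count at 40 ppb was 0 without the second control array or the first 40 ppb array and 1 without the second 40 ppb array. The krt18b call at 10 ppb was lost without either control array or the first 10 ppb array. The 5 calls at 100 ppb were made whichever single array was left out.

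**Figure D2:**
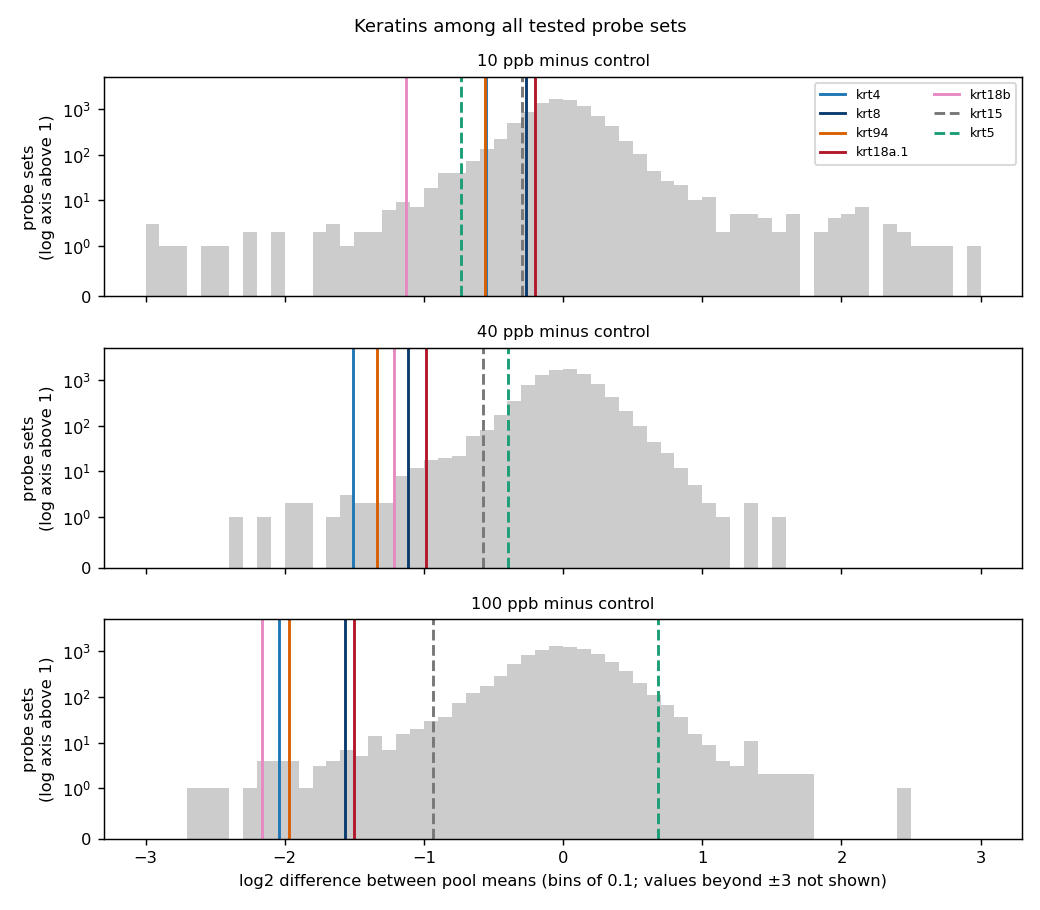
Distribution of log2 differences from control over the 9301 probe sets tested (bars, counts on a log axis) at each dose, with the 5 keratins as solid lines and krt15 and krt5 as dashed lines; differences beyond 3 in size are not drawn. The keratins lie from -0.20 to -1.13 at 10 ppb, where krt8 and krt18a.1 are within the bulk, and from -1.50 to -2.16 at 100 ppb, in the left tail, while the medians of all probe sets lie near 0.

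The step between exposed pools showed where the genes separated. From 10 to 40 ppb the difference was -0.96 for krt4, -0.85 for krt8, -0.78 for krt94 and -0.78 for krt18a.1, but -0.09 for krt18b. From 40 to 100 ppb it was -0.95 for krt18b and between -0.46 and -0.63 for the others. None of the 5 was called in either step by limma, in which 0.677% and 0.269% of all probe sets were called lower. An unadjusted p under 0.05 was found for 4 and 5 of the keratins. The share of all probe sets under that threshold is not given, here or beside later counts of this kind. From 10 to 40 ppb 4 of the 5, and from 40 to 100 ppb 1, krt18b, had an adjusted p under 0.05 and missed a call by the minimum difference alone. The share of all probe sets with an adjusted p under 0.05 in these steps is not given, so these counts only describe the chosen genes. Between 10 and 100 ppb all 5 were called lower, against 1.08% of all probe sets, with differences from -1.04 (krt18b) to -1.49 (krt4).

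Strict order by dose, with the arrays of all 4 pools apart and each pool below the one before, held for krt4, krt94 and krt18a.1. It held for 42 of the 9301 probe sets tested, or 0.452%. The exceptions were krt8, whose control and 10 ppb arrays overlapped, and krt18b, whose 10 and 40 ppb arrays did. Leaving the 10 ppb pool aside, all 5 were ordered from control to 40 to 100 ppb, as were 6% of all probe sets. A straight line through the 4 pool means by dose rank gave slopes per dose step of -0.71 for krt4, -0.56 for krt8, -0.67 for krt94, -0.53 for krt18a.1 and -0.66 for krt18b. The slopes were among the values that chose the genes, so nothing is read from their p-values: after adjustment krt94 was under 0.05, as were 2 of the 9301 probe sets (0.0215%), and no keratin was when any of 5 of the 8 single arrays was left out. With 4 pools the slope has 2 residual degrees of freedom. Without the 10 ppb pool all 5 keratins were under 0.05, as were 177 of the 9301 probe sets. That fit has fewer pool means, so fewer residual degrees of freedom, and counts control to 40 ppb as 2 dose steps. With dose entered in ppb no probe set was under 0.05.

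The array days recorded in the instrument files split the doses unevenly. The first arrays of the control, 40 and 100 ppb pools ran on 1 day, the second arrays of all 4 pools on another, and the first 10 ppb array on a day of its own. Within the first of these days the krt8 difference was -0.89 at 40 ppb and -1.39 at 100 ppb, and within the second it was -1.34 and -1.74. For krt94 the within-day differences at 100 ppb were -1.98 and -1.95, and for krt18b -2.08 and -2.24. At 10 ppb only the second day held a control, and there the differences were -0.97 for krt4, -0.64 for krt8, -0.67 for krt94, -0.37 for krt18a.1 and -0.97 for krt18b. Every within-day difference of the 5 keratins was below 0. With day as a block, krt18b was no longer called at 10 ppb.

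Because a filament needs both chain types, the type means were compared on each array, each gene first set to its control mean. The type II mean lay at -0.20 and -0.62 on the 10 ppb arrays, at -1.32 and -1.31 on the 40 ppb arrays and at -1.80 on both 100 ppb arrays. The type I mean lay at -0.63 on both 10 ppb arrays, at -1.16 and -1.19 with 40 ppb and at -1.83 and -1.92 with 100 ppb. The type II minus type I shift was therefore 0.43 and 0.01 with 10 ppb, -0.16 and -0.11 with 40 ppb and 0.03 and 0.12 with 100 ppb, where the 2 control arrays stood at -0.14 and 0.14. The 40 and 100 ppb shifts were about as small as the spread of the control arrays, and the 10 ppb arrays differed from each other. These genes were chosen for low values in exposed ovary, so the likeness of the type means describes the choice and tests no pairing. The other tested keratins are not in these means. Against control at 100 ppb, type II krt5 stood at 0.68. Type I krt15 stood at -0.94 there, and the 2 probe sets of type I krt91 at -0.62 and -0.19.

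The pair krt8 and krt18a.1, next to each other in the RefSeq gene table with no protein-coding gene between them, had the smallest of the 6 type II and type I pairs' largest shifts in pool means over the 3 doses, 0.13 against 0.18 for krt4 and krt94. The krt8 minus krt18a.1 shift was -0.06, -0.13 and -0.07 at 10, 40 and 100 ppb, and ran from -0.26 to 0.13 over the exposed arrays. Its 2 control arrays stood at -0.18 and 0.18. The krt4 minus krt94 shift was 0.01, -0.18 and -0.07, with control arrays at -0.06 and 0.06. The spread of the arrays is wider than the gap between 0.13 and 0.18, so the order of these 2 pairs is not resolved. The other neighbouring type II and type I pair, krt4 and krt18b, has 1 gene between them (zgc:158846), and its shift was 0.57, -0.30 and 0.12. At 10 ppb the 2 arrays of this pair read 0.96 and 0.18. Setting krt18a.1 against krt18b, the 2 krt18 genes, gave 1.23 and 0.61 with 10 ppb, 0.11 and 0.34 with 40 ppb and 0.76 and 0.56 with 100 ppb, so krt18b was lower relative to its control level than krt18a.1 on all exposed arrays. The 2 type II genes also parted: krt4 minus krt8 was -0.29, -0.40 and -0.47, and every exposed array lay below 0. The pairs were formed from genes chosen for their values, and no test is given. An older synonym of krt4 in the gene table is krt8, so older reports may use that name for either gene.

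**Figure D3:**
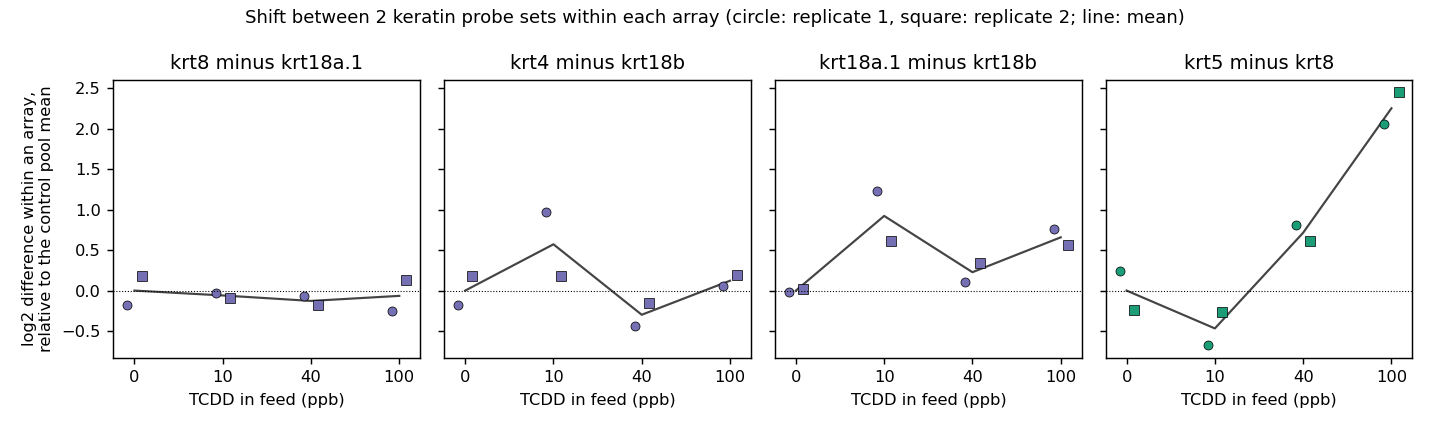
Shift of the log2 difference between 2 keratins relative to its control mean, on each array (points) by dose rank. The krt8 and krt18a.1 pair stays between -0.26 and 0.13 on the exposed arrays, while krt5 minus krt8 reaches 2.05 and 2.45 at 100 ppb.

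Over the 8 arrays the 5 keratins correlated pairwise at Pearson r from 0.850 (krt8 and krt18b) to 0.993 (krt4 and krt8). These arrays are 4 pools read in duplicate and share the dose order for which the genes were chosen, so r describes them and no p is given.

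The array measured 10 further keratin genes on 13 probe sets, and 3 of them, krt15, krt5 and krt91, were bright enough to test. None of their 4 probe sets was called against control by limma at any dose, where 1.11%, 0.344% and 1.25% of all probe sets were called in either direction. At each dose 3 of the 4 had an unadjusted p under 0.05 (share of all probe sets not given). More than 1 of the 4 measures the same gene, krt91. Their medians were -0.62, -0.69 and -0.41 at 10, 40 and 100 ppb. A count of 1 call at 100 ppb appeared without the second 100 ppb array, and with a pseudocount of 1.

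krt15, a type I keratin separated from krt94 by krt98 alone in the gene table, fell with dose as krt4, krt94 and krt18a.1 did. Its differences at 40 and 100 ppb were smaller than theirs. It read 6.56 and 6.74 in the control, 6.32 and 6.39 with 10 ppb, 6.04 and 6.11 with 40 ppb and 5.44 and 5.98 with 100 ppb. Its 4 pools were in strict order without overlap. The differences were -0.29, -0.57 and -0.94 (SE 0.19), with adjusted p of 0.508, 0.269 and 0.021, the last under the minimum difference for a call.

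krt5 went the other way at the highest dose. This type II gene, in mammals the keratin of basal layers in stratified epithelium, is the direct neighbour of krt8 in the gene table. It read 5.39 and 5.29 in the control, 4.58 and 4.63 with 10 ppb, 5.07 and 4.81 with 40 ppb and 5.81 and 6.23 with 100 ppb. The 100 ppb arrays were above all others and the 10 ppb arrays below all others. Against control the differences were -0.73 (adjusted p 0.082), -0.40 (0.457) and 0.68 (0.065), SE 0.19, and none was called. The krt5 probe set was called higher at 100 ppb than at 40 ppb (1.08, adjusted p 0.029) and than at 10 ppb (1.41, adjusted p 0.0025). The share of all probe sets called higher in these 2 comparisons is not given. Relative to krt8 it stood 2.25 higher at 100 ppb than in the control, on arrays at 2.05 and 2.45, and 2.12 higher on the deposited scaling. krt5 is dim, and its signals at 100 ppb were 51.8 and 43.0 intensity units. At 10 ppb they were 7.2 and 6.0, with the first of these arrays at or below the tag controls. The 1.41 is thus a difference from values near background.

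krt91, a type I keratin, was measured by 2 probe sets that disagreed at 100 ppb. The first had differences of -0.79 (adjusted p 0.039), -0.81 (0.077) and -0.62 (0.062), SE 0.17, and the second, a set marked as prone to cross-hybridise, had -0.51, -0.95 and -0.19, none under an adjusted p of 0.05. Both control arrays of the first set, 6.75 and 6.89, lay above all its exposed arrays, which ran from 5.92 to 6.37, with no order among the doses. Of the 9 untested probe sets, 5 read at or below the tag controls on all 8 arrays: both of krt1-19d and those of krt17, krt95 and krt99. The untested krt97 had pool means of 5.56, 4.85, 4.65 and 4.83, while the untested krt93 rose, with 4.49, 4.49, 4.84 and 5.08. krt1-19e, with 2 untested probe sets, was added to the count after its values were seen. Its pool means were 4.56, 4.91, 4.88 and 5.08 for 1 probe set and 4.49, 4.26, 4.16 and 4.27 for the other. These dim sets read at or below the tag controls on 4 (krt97), 3 (krt93), 1 and 7 (krt1-19e) of the 8 arrays. A further keratin probe set carries several symbols and is not named.

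**Figure D4:**
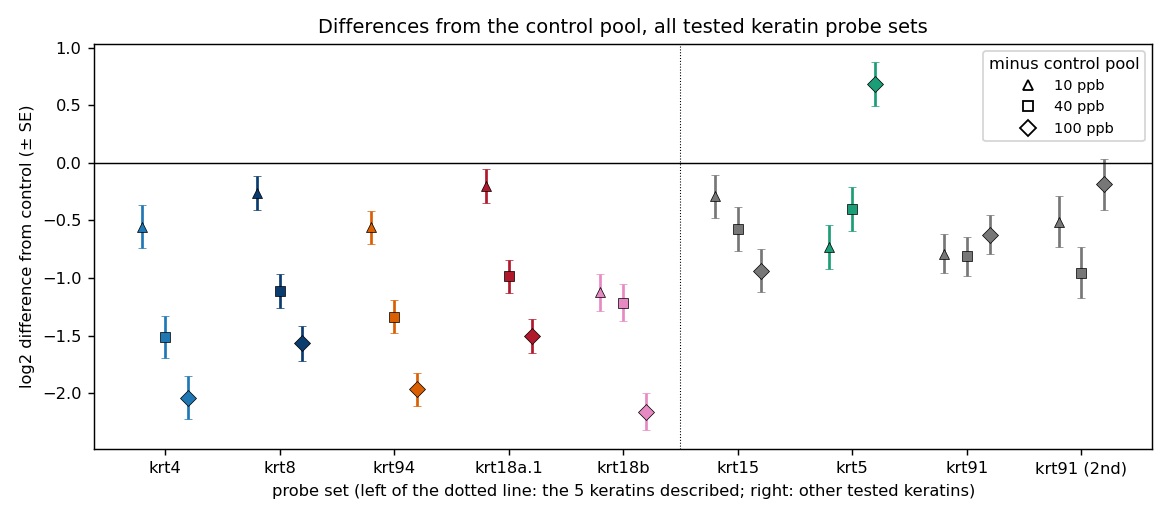
Log2 difference from control at 10, 40 and 100 ppb for the 5 keratins and the other tested keratin probe sets, with bars of 1 SE from the fit over all arrays. The 5 keratins lie at or below -1.50 at 100 ppb, krt15 lies at -0.94 and krt5 at 0.68.

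Beyond keratins, the intermediate filament genes bright enough to test were lamins. Lamins form the filament mesh under the nuclear envelope of all cells. The 5 lamin probe sets tested (lmna, lmnb1 with 2, lmnb2 and lmnl3) were not called by limma at any dose. Of all probe sets, 1.11%, 0.344% and 1.25% were called at 10, 40 and 100 ppb. At these doses 2, 1 and 1 of the 5 had an unadjusted p under 0.05 (share of all probe sets not given). The lamin differences at 100 ppb ran from 0.05 to 0.31, with a median of 0.13. The filament genes of mesenchyme, muscle and glia (vim, desma, desmb and gfap) were too dim to test.

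Desmosomes anchor keratin filaments at cell contacts. Of the 15 probe sets tested for desmosome and plakin genes, pkp1b, a plakophilin of the desmosome plaque, was called lower (0.301% and 0.946% of all probe sets) at 40 ppb (-1.07, adjusted p 0.035) and at 100 ppb (-1.01, SE 0.19, adjusted p 0.014), and no other was called. The median difference of the group was -0.20, -0.18 and -0.39 at the 3 doses, and 12 of 15 lay below 0 at 100 ppb, where 49.4% of all probe sets did. dspa, the desmoplakin that ties keratin to the plaque, had -0.76 at 100 ppb (adjusted p 0.024) and was ordered without overlap over the 4 pools. The plakoglobin gene jupa had -0.28 (adjusted p 0.200), and the periplakin gene ppl 0.58 (adjusted p 0.086). The pkp1b call at 100 ppb was lost without either control array, the first 40 ppb array or the first 100 ppb array.

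Adhesion and tight junction genes of epithelia moved both ways at 100 ppb, with 4 of 20 probe sets lower and 1 higher (0.946% and 0.301% of all probe sets). None was called by limma at 10 or 40 ppb (1.11% and 0.344% of all). At these doses 2 and 3 had an unadjusted p under 0.05 (share of all probe sets not given). The claudin gene cldn3d was lower (-1.03, adjusted p 0.0068), as were 3 of 4 probe sets of the claudin cldng (-1.37, -1.03 and -1.01), while the fourth cldng probe set read 0.28 (adjusted p 0.112). For epcam, an adhesion gene of epithelial cells, 1 probe set, also of the kind marked as prone to cross-hybridise, was higher (1.59, adjusted p 0.0049) and the other read 0.23 (adjusted p 0.428). The E-cadherin gene cdh1 had a pool mean of 8.82 in the control and 9.47 at 100 ppb, a difference of 0.65 (adjusted p 0.019) that is under the minimum for a call. The group's median was 0.21. Without 1 of the control or 100 ppb arrays the 5 calls became 2, 2, 2 or 1.

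Among 6 tested regulators of epithelial transcription and splicing, cebpa, a transcription factor, was called lower at 40 ppb (-1.06) and at 100 ppb (-1.37, adjusted p 0.0037). Of all probe sets tested, 0.301% and 0.946% were called lower at these doses. tfap2a, an AP-2 factor active in early skin, was called higher at 10 ppb (1.08, adjusted p 0.010), as were 0.645% of all probe sets. The splicing factor genes esrp1 and esrp2, at 0.67 and -0.21, were not called. The cebpa call at 100 ppb was lost without the first control array or the second 100 ppb array.

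In the list for cornified and surface epithelium, 5 of 17 probe sets were called at 100 ppb, where 1.25% of all probe sets were. The membrane-binding annexins anxa1a (-2.64) and anxa2a (-2.12), the annexin 2 partner s100a10b (-1.61) and the water and glycerol channel aqp3a (-1.37) were lower, and s100v1, a calcium-binding S100 gene, was higher (1.04). At 40 ppb 3 were lower (0.301% of all probe sets), and at 10 ppb 1 (0.462%), aqp3a (-1.25). The 2 probe sets of icn, an S100 gene of fish epithelium, read -0.75 and -0.84 at 100 ppb (adjusted p 0.028 and 0.022). The lists were drawn up with earlier results of these data known.

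Marker lists of other cell types were summed on each array. The summed normalised intensity of the oocyte list was 39909 and 40358 in the control and 44380 and 45460 at 100 ppb, and that of the follicle cell list 738 and 802 against 812 and 792. The leukocyte list (12 genes measured) summed to 879 and 812 in the control and 399 and 459 at 100 ppb, 1.97-fold lower. The smooth muscle and stroma list (9 genes) went from 911 and 971 to 472 and 481, also 1.97-fold lower, and the red blood cell list (7 genes) from 448 and 492 to 187 and 198, 2.44-fold lower. The endothelium list (4 genes) went from 74.7 and 82.2 to 51.6 and 45.3. At 10 and 40 ppb the mean leukocyte sum was 0.75 and 0.59 of the control mean, and the stroma sum 0.70 and 0.74. The red blood cell sum was 1.02 and 0.98 of control at these doses and the endothelium sum 0.96 and 0.92. The mean sums of the last 2 lists were thus near control until 100 ppb, but single arrays and genes were not all so. The endothelium list summed to 55.4 and 89.5 on the 40 ppb arrays. In the red blood cell list, ca2 was called lower by limma at 40 ppb (-1.06, adjusted p 0.024), as were 0.301% of all probe sets. The other of the 2 probe sets tested there read 0.17 at that dose. Called lower at 100 ppb, as were 0.946% of all probe sets, were 2 of 9 leukocyte probe sets, cpa5 (-2.53) and marco (-1.35), 3 of 10 for smooth muscle and stroma, the contractile genes acta2 (-1.15) and tagln (2.01-fold lower) and the fibronectin gene fn1b (-1.03), and both for red blood cells, the carbonic anhydrase gene ca2 (-1.31) and the globin gene hbaa1 (-1.24). Of the 9 leukocyte probe sets, 8 lay below control at 100 ppb and 1 above it (0.68), where 49.4% of all probe sets lay below. At 10 ppb 1 of the 9 was called higher (1.07), as were 0.645% of all probe sets. A sum gives bright genes the most weight, and the part of cpa5 in the leukocyte sum was not separated. None of 23 oocyte, 5 follicle cell or 2 endothelium probe sets was called by limma at 100 ppb. Of these, 11, 3 and 1 had an unadjusted p under 0.05 (share of all probe sets not given). The part these cell types have in the keratin differences was not tested.

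Markers of the tissues that could bring keratin were examined in the same way. The ovarian surface epithelium and mesothelium list had 8 genes measured, none bright enough to test, with lhx9 and upk1a at or below the tag controls on all 8 arrays. Its sum was 54.7 and 54.8 in the control and 53.7 and 43.8 at 100 ppb. The epidermis list, which holds krt5, had 10 genes measured, of which aep1, atp1b1b, col17a1b, krt1-19d and krt17 were at or below the tag controls on all arrays, and its sum was 105 and 82.9 in the control and 118 and 149 at 100 ppb. The intestine list summed to 150 and 151 in the control and to 56.4 and 84.1 at 100 ppb. Its mean sum was 0.56, 0.44 and 0.47 of the control mean at 10, 40 and 100 ppb. The 1 probe set of this list bright enough to test was not called (0.06 at 100 ppb). The liver list stood apart at 10 ppb, with 16 of 19 probe sets called higher, where 0.645% of all probe sets were. The called genes included the hemopexin gene hpxb (4.65) and the transferrin gene tfa (3.46). On the 2 arrays of 10 ppb the liver list summed to 18504 and 5049. The labels call these 2 arrays technical replicates of 1 pool, and why they differ was not tested. It summed to 886 and 975 in the control, 661 and 762 with 40 ppb and 1107 and 1149 with 100 ppb. The 10 ppb array with the higher liver sum also had the higher krt4, krt8 and krt18a.1 and the lower krt18b, and the part of liver RNA in the 10 ppb keratin values was not tested. The ratio of 3' to 5' gapdh signal, a sign of RNA integrity, was 1.38 and 1.34 in the control and 1.22 and 1.52 at 10 ppb. It was 1.23 and 1.16 at 40 ppb and 0.949 and 1.06 at 100 ppb, and its part was not tested either.

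The genes most like the mean of the 5 keratins were sought among 202 named genes' probe sets whose pool means spanned at least 1. The 10 with the highest Pearson r over the 8 arrays were anxa1a (0.990), cldn3d (0.986), cpa5 (0.976), anxa2a (0.961), gapdhs (0.959), zfp36l1b (0.957), tcnbb (0.953), marco (0.947), junba (0.945) and s100a10b (0.928). anxa1a read 9.80 and 9.72 in the control, 8.96 and 8.88 with 10 ppb, 7.90 and 7.83 with 40 ppb and 6.99 and 7.26 with 100 ppb, in strict order. cpa5, a carboxypeptidase gene of mast cells, read 7.92 and 8.00 in the control and 5.47 and 5.39 at 100 ppb, and marco, a macrophage scavenger receptor gene, had a difference of -1.35 at 100 ppb. The most opposite were crp (-0.901), vstm2lb (-0.897), cyp1a (-0.895), s100v1 (-0.867) and tefb (-0.866). These values describe 4 pools read in duplicate, so genes with any steady dose order score high.

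**Figure D5:**
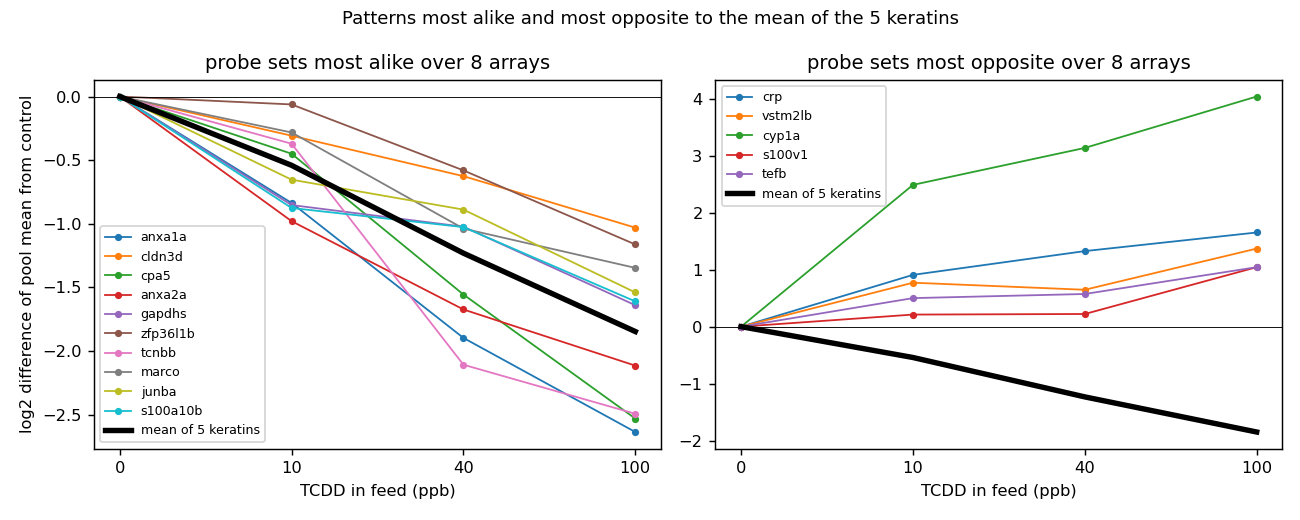
Log2 difference of the pool mean from control for the mean of the 5 keratins (thick line) and for the 10 most alike and 5 most opposite genes, by dose rank. At 100 ppb anxa1a reaches -2.64, below the keratin mean, whose 100 ppb arrays stand at -1.82 and -1.87, and cyp1a runs opposite to 4.04.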

How the data were processed

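The authors deposited linear intensities per probe set, made with MAS5 per the submitters' processing notes. Its version and scaling target are not stated by the labels, and the arrays were not equally bright. Of 15617 probe sets, 115 controls were dropped. log2 values of intensity + 16 were computed from the deposited intensities and quantile normalised, and 9301 probe sets with a mean above the 40th percentile (5.11) were tested with limma 3.58.1 in R 4.3.3 (lmFit on the 4 dose groups, eBayes with a variance trend, Benjamini-Hochberg over all tested). Calls needed an adjusted p under 0.05 and a log2 difference of at least 1. Dose slopes were fitted to the 4 pool means. The fit was tested on simulated data. These had independent arrays with the spread within pools alone, so that test cannot speak to differences between fish or pools. Symbols came from the platform annotation (10795 probe sets with 1 symbol, 135 with several, 4572 unnamed) and were checked against RefSeq identifiers. A probe set was taken as below background at or under the 95th percentile of the tag controls. Fold changes on this scale understate those of dim probe sets, and p-values measure the spread of technical arrays only, which limits precision to that step.

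The 5 genes and all lists were chosen with earlier results of these data known. All 5 genes were described on every array. The tested probe sets of the keratin and other filament lists were all accounted for, though not all with array values. From the remaining lists up to 4 genes with the smallest adjusted p among those called were to be named, together with the 10 most alike and 5 most opposite patterns and cyp1a. The other genes printed with values were chosen after their values were seen. Same-numbered arrays did not deviate together in every pair of doses. Between the control, 40 and 100 ppb pools r was 0.143 to 0.298. In pairs with the 10 ppb pool, whose first array ran on a day of its own, r was 0.013 to 0.046. The main fit has no replicate block, so a pairing among the control, 40 and 100 ppb arrays is not modelled in it. The alternatives were other scalings, pseudocounts of 1 and 64, other filters, replicate and day blocks, the compared pools only, no minimum difference, pool means alone, each array left out, dose in ppb and the 10 ppb pool left out. No sequences were used here, and gene coordinates served only to find neighbours in the RefSeq gene table.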

Additional observations from a re-analysis of the deposited data

How the results depend on the processing

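Every difference of the 5 keratins from control stayed below 0 under every alternative scaling, pseudocount, filter, block and left-out array. The genes had been chosen for low values. At 10 ppb krt8 ranged from -0.53 to -0.07, and at 100 ppb krt18b from -2.74 (pseudocount 1) to -1.36 (pseudocount 64). The -0.53 came from the deposited scaling, where the median of all probe sets tested at 10 ppb was itself -0.34. On the deposited scaling, the number of keratins called was 0, 0 and 1 at 10, 40 and 100 ppb, and 3 passed for slope (19 of 9301 probe sets, against 2); the cornified list had 1 call and the desmosome, adhesion and transcription lists 0. With a pseudocount of 64 the counts were 0 at 10 ppb, 0 for slope, 3 for the cornified list and 0 for the desmosome, adhesion and transcription lists; with 1, the desmosome and transcription lists had 2 and the other keratins 1. With the 60th percentile filter, which removed krt18b, the counts were 0 at 10 ppb, 4 for slope (9 of 6201 probe sets), 3 for the cornified and adhesion lists and 0 for the desmosome and transcription lists. Without a minimum difference the cornified list had 10, the desmosome list 3, the transcription list 2 and the other keratins 1. Equal trimmed means gave 2 for slope (5 of 9301) and 1 for the other keratins. The day block gave 0 at 10 ppb, dose in ppb 0 for slope, and leaving out the 10 ppb pool 5 (177 of 9301). Leaving out 1 array gave 0 to 1 keratins at 10 ppb, 0 to 4 at 40 ppb, 5 at 100 ppb and 0 to 3 for slope; for the lists at 100 ppb it gave 4 to 6 (cornified), 0 to 1 (desmosome), 1 to 5 (adhesion), 0 to 1 (transcription) and 0 to 1 (other keratins). A left-out array leaves its pool with 1 array, assumed to vary like the others. The cause of these changes was not tested, except that the minimum difference and the filter act by their construction. With the replicate number as a block the counts were 1, 4 and 5 keratins at 10, 40 and 100 ppb, so the block changed no call count of the keratins. Over all probe sets tested, the calls at 100 ppb were 116, and 13 on the deposited scaling, 44 with a pseudocount of 64, 197 with a pseudocount of 1, 49 with the 60th percentile filter and 481 without a minimum difference; at 40 ppb they were 32, and 4, 15, 35, 15 and 57, and at 10 ppb 103, and 64, 61, 149, 37 and 226. Using the compared pools only gave 55 at 10 ppb. With 1 pool per dose, none of these alternatives measures differences between fish, and probe sets near the tag controls, such as krt5, are limited by background.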
